A study of Rattus norvegicus with 3 samples.

Results

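The interleukin-6 family was examined through 10 rat genes: the cytokine genes Il6, Lif, Il11 and Clcf1, the receptor genes Il6r, Il6st and Osmr, the transcription factor gene Stat3, its feedback inhibitor Socs3, and Reg3b, a gene that STAT3 is known to induce. They were selected on gene symbol, among probe sets annotated with a single symbol, and chosen by a comparison of the 3 media in which the differences between these arrays were already known. Their values are therefore given as a description, with no test. Of the 10 genes, 9 had such a probe set, out of 14218 genes in all, and together they had 13 probe sets. Osmr, the oncostatin M receptor gene, had none and was not analysed here. The cells were cardiomyocytes freed by enzyme digestion from hearts of fetal Wistar rats, an outbred rat stock, plated for 48 h and then kept for 24 h in 1 of 3 media. The groups were medium conditioned by cardiac fibroblasts, medium conditioned by skeletal myoblasts, and fresh culture medium as the control, with 1 array of total RNA each. The number of animals or cultures behind each array, and whether they were pooled, is not given in the sources used here.

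Cytokines of this family signal through receptor complexes that share gp130, the protein encoded by Il6st, together with a ligand-specific chain such as the interleukin-6 receptor (Il6r), the LIF receptor (Lifr) or the oncostatin M receptor. Janus kinases bound to gp130 phosphorylate STAT3, which enters the nucleus and induces its target genes, and one of these targets, Socs3, blocks the kinases and the receptor in turn. In the heart, gp130 signalling is known for its part in cardiomyocyte growth and survival and in inflammation. Phosphorylation was not measured here, so the values bear on transcript abundance alone.

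Each value is a log2 expression value centred on the median of its probe set over the 3 arrays. A value of 0 is thus the middle array, and the absolute level of a transcript is not known. Blank cells were read as 0, and a difference of 1 on the log2 scale is 2-fold. With 1 array per medium there is no replicate error, no p-value and no standard error for any difference. The only measured yardstick was 42 probe sets for bacterial and phage control transcripts meant to be added in equal amounts, whose differences ran from -0.68 to 0.59 between fibroblast-conditioned and fresh medium, from -0.01 to 0.66 between myoblast-conditioned and fresh medium and from -1.02 to 0.48 between the conditioned media. In bulk RNA, a change in how many cells of a type are present and a change in RNA per cell cannot be told apart.

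The stretches of genome upstream of Il6 and Reg3b are shown because these were the members past 2-fold. They are the 250 bases before the annotated start of each gene, from RefSeq on assembly GRCr8. Il6 lies on the minus strand of chromosome 4, and its window with 50 bases past the start is chr4:5894526-5894825. Reg3b lies on the plus strand of the same chromosome, with its window at chr4:112419526-112419825. Capitals mark letters that match a searched motif.
Il6: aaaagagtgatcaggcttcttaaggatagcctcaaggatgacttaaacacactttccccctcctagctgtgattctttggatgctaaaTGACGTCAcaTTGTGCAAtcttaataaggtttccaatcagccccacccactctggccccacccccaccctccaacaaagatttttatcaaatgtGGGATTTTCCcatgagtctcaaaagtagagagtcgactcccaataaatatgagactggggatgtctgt
Reg3b: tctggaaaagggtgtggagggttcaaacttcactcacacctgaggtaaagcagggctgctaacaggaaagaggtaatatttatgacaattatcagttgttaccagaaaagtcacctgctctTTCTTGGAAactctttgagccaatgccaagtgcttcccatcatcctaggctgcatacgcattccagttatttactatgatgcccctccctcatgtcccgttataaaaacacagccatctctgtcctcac

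The motifs, searched on both strands, were the STAT element TTCNNNGAA, the NF-kB element, the AP-1 element TGANTCA, the CRE half-site TGACG and the C/EBP element TTNNGCAA. In the Il6 window, positions counted from the gene start placed an NF-kB match, GGGATTTTCC, at -68 to -59 and a C/EBP match, TTGTGCAA, at -152 to -145. A pair of overlapping CRE half-sites on opposite strands spanned -162 to -155. In the Reg3b window, the STAT match TTCTTGGAA lay at -129 to -121. Of all 33469 RefSeq windows of that length, 8.87% held the STAT letters, 7.51% the NF-kB element, 7.33% AP-1, 21.2% the CRE half-site and 10.6% C/EBP. These are matches of letters only. Windows were listed for 8 of the 10 members. Only those of Il6, Il11 and Reg3b began at the outer edge of the annotated gene, and the other 5, Socs3 among them, are not described.

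In fibroblast-conditioned medium, 2 of the 9 measured members, Il6 and Reg3b, were at least 2-fold higher than in fresh medium, and 0 were 2-fold lower. The background over all genes was 4.26% past 2-fold upward and 2.6% past it downward, and because the members were chosen with this contrast known, nothing is read from the count. Their median difference was 0.56, against 0.00 over all genes. In this comparison 7 members were above 0, none was below, and Lif and Il11 were at 0. Of all genes, 41.0% were above 0, 43.1% below and 15.9% at 0.

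In myoblast-conditioned medium, only Reg3b of the 9 was at least 2-fold higher than in fresh medium and 0 were 2-fold lower, beside 1.35% and 0.844% of all genes. The members' median was 0.00, with 4 above 0, 1 below and 4 at 0, beside 39.0%, 40.2% and 20.8% of all genes. Between the conditioned media, Il6 alone was at least 2-fold higher in fibroblast-conditioned medium and 0 were 2-fold lower, with 3.94% and 2.12% of all genes past those limits and a median of 0.20 over the members. In size, the members beyond every added control transcript were those past 2-fold. Counting the higher direction alone, Socs3 and Il6st also lay above the highest control transcript in fibroblast-conditioned against fresh medium, and Reg3b and Stat3 did between the conditioned media. The comparisons against fresh medium share that 1 array.

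**Figure D1:**
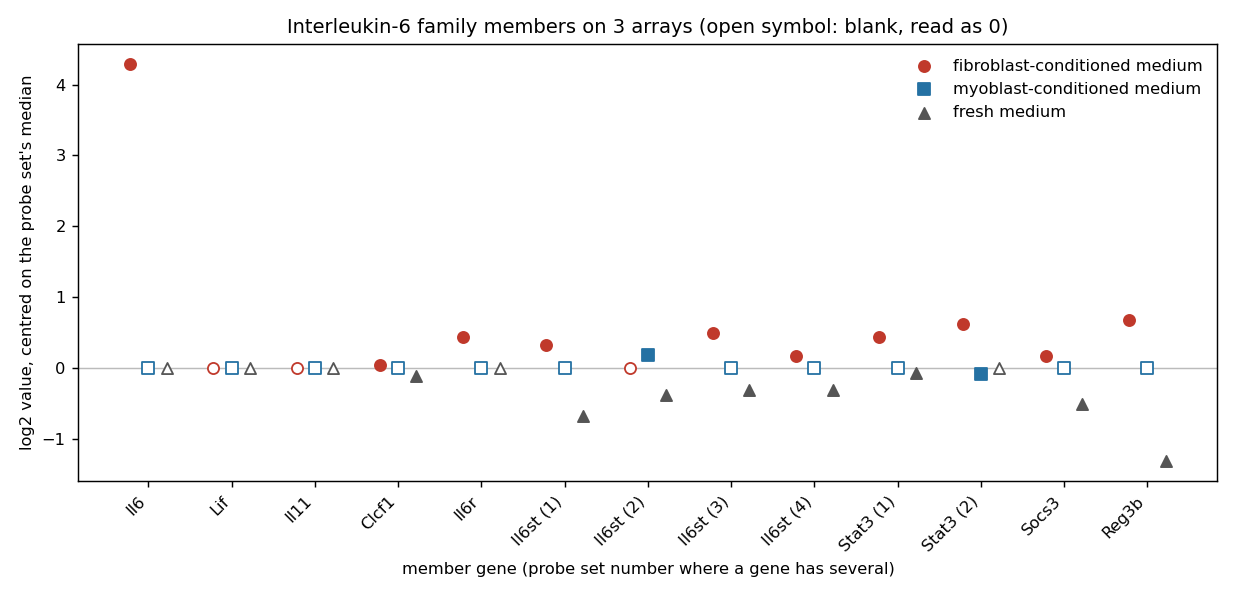
Centred log2 value (vertical axis) of each of the 13 probe sets of the 9 measured members (horizontal axis) on the fibroblast-conditioned, myoblast-conditioned and fresh medium arrays, with open symbols for blank cells read as 0. Il6 at 4.29 in fibroblast-conditioned medium stands far above the other points, and Reg3b in fresh medium at -1.31 is the lowest.

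Among the ligands, Il6, which encodes interleukin-6 itself, had a value of 4.29 in fibroblast-conditioned medium and blank cells in myoblast-conditioned and in fresh medium. With blanks read as 0, 1 array was high and the others shared a single value. How the blanks arose is not stated in the sources used here. The difference of 4.29, or 19.6-fold, from either of the other media ranked 12th of 14218 genes against fresh medium and 13th against myoblast-conditioned medium. This difference rests on 1 probe set and on reading its blanks as the middle value. If blanks are left missing, Il6 has no difference in any comparison.

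Lif, the gene of leukemia inhibitory factor, and Il11, the gene of interleukin-11, had 1 probe set each with blank cells on all 3 arrays. Their differences are 0.00 by that reading, which says neither that the transcripts were present nor that they were absent. Clcf1, which encodes a cytokine that acts through the ciliary neurotrophic factor receptor, had a value of 0.04 in fibroblast-conditioned medium, a blank in myoblast-conditioned medium and -0.11 in fresh medium. Its differences from fresh medium, 0.15 and 0.11, lay inside the range of the added control transcripts.

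The other measured ligand genes of the family were Ctf1, encoding cardiotrophin-1, Osm, encoding oncostatin M, Cntf and Ebi3. Of 8 measured ligand genes in a list of 11 that included the 4 members, Il6 alone was past 2-fold, in fibroblast-conditioned against both other media. Of all genes, 4.26% were 2-fold higher against fresh medium and 3.94% against myoblast-conditioned medium. In so short a list, nothing is read from the other ligand genes staying within 2-fold. Ctf1 had a difference of 0.56 between fibroblast-conditioned and fresh medium and of -0.05 between myoblast-conditioned and fresh medium. Osm gave 0.30 and -0.07 in the same order, Ebi3 0.26 and 0.04, and Cntf 0.17 and 0.36. The list's median difference from fresh medium was 0.21 in fibroblast-conditioned and 0.00 in myoblast-conditioned medium, against 0.00 over all genes in each.

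Among the receptors, Il6st was measured by 4 probe sets, and fresh medium was lowest in all 4. The first had values of 0.33 in fibroblast-conditioned medium, a blank in myoblast-conditioned medium and -0.67 in fresh medium. The second had a blank in fibroblast-conditioned medium, 0.19 in myoblast-conditioned medium and -0.38 in fresh medium. The third and the fourth had 0.49 and 0.17 in fibroblast-conditioned medium, blanks in myoblast-conditioned medium, and -0.31 and -0.30 in fresh medium.

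The conditioned media thus changed places in 1 of the 4 Il6st probe sets, while each lay above fresh medium throughout. Averaged over them, the difference from fresh medium was 0.66 (1.58-fold) in fibroblast-conditioned medium, with single probe sets from 0.38 to 1.004, and 0.46 (1.38-fold) in myoblast-conditioned medium, from 0.30 to 0.67. The mean of 0.46 lay inside the range of the added control transcripts in that comparison, whose median was 0.29 and whose highest was 0.66. The difference between the conditioned media was 0.20, with probe sets from -0.19 to 0.49. Taking the probe set with the widest range in place of the mean puts Il6st at 1.004 against fresh medium in fibroblast-conditioned medium, just past 2-fold.

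Il6r, whose product binds interleukin-6 before gp130 joins, had a value of 0.44 in fibroblast-conditioned medium and blanks in the other media, a difference of 1.36-fold from each. None of the 6 measured receptor genes in a list of 8 was past 2-fold in any comparison. Of all genes, 0.844% to 4.26% were past it, by direction and comparison, so nothing is read from this count. Il11ra1, encoding the interleukin-11 receptor chain, had a difference of 0.52 in fibroblast-conditioned and 0.05 in myoblast-conditioned medium, and Il27ra 0.32 and 0.00. Lifr, the LIF receptor gene, had -0.59 and -0.16, the lowest of the receptors in both. Cntfr was at -0.08 in both.

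Stat3 was measured by 2 probe sets. The first had 0.44 in fibroblast-conditioned medium, a blank in myoblast-conditioned medium and -0.06 in fresh medium, and the second 0.62, -0.09 and a blank. Fibroblast-conditioned medium was highest in both, and the other media lay within 0.09 of each other. The mean difference of fibroblast-conditioned medium was 0.56 (1.48-fold) from fresh medium and 0.57 from myoblast-conditioned medium, and that of myoblast-conditioned from fresh medium was -0.01. The first lay just inside the range of the added control transcripts, whose highest was 0.59, and the second lay above their highest, 0.48.

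Of 9 measured genes for kinases, STAT proteins and adaptors in a list of 10 that included Stat3, 0 were past 2-fold in any comparison. The shares of all genes past that limit were 0.844% to 4.26%, by direction and comparison. With so few genes, nothing is read from the 0. Jak2 and Jak1, which encode kinases that bind gp130, differed in sign. Jak2 had differences from fresh medium of 0.85 in fibroblast-conditioned and 0.72 in myoblast-conditioned medium, and Jak1 of -0.64 and -0.13. Gab1, an adaptor gene, was at -0.57 and -0.51, and Ptpn11, which encodes the phosphatase SHP2, at 0.23 and 0.30. Stat5a, Stat5b, Tyk2 and Grb2 lay between -0.21 and 0.20.

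Socs3 had a value of 0.16 in fibroblast-conditioned medium, a blank in myoblast-conditioned medium and -0.51 in fresh medium, on 1 probe set. Fresh medium was the low array and the conditioned media lay close together. The difference from fresh medium was 0.67 (1.59-fold) in fibroblast-conditioned and 0.51 (1.42-fold) in myoblast-conditioned medium, and the difference between the conditioned media 0.16. In size, 13.1% of all genes differed at least as much as Socs3 in the first comparison and 8.77% in the second. The Socs3 difference of 0.51 lay inside the range of the added control transcripts between myoblast-conditioned and fresh medium. Between the conditioned media, Il6 differed 19.6-fold and Socs3 1.12-fold, each by reading a blank in myoblast-conditioned medium as 0. With blanks left missing, neither gene has a difference between those media.

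Of 11 measured inhibitor genes in a list of 12 that included Socs3, 0 were past 2-fold in any comparison. Over all genes, the share past 2-fold ran from 0.844% to 4.26% by direction and comparison. Nothing is read from a count of 0 in so short a list. Socs1 and Cish, other members of the same inhibitor family, had blanks on all arrays in both of their probe sets. Socs6 was lowest, at -0.96 in fibroblast-conditioned and -0.44 in myoblast-conditioned medium relative to fresh medium, and Socs5 was at 0.27 and 0.59. The phosphatase gene Ptpn1 was at 0.06 and -0.34, and Ptpn2 was at 0.15 in both.

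**Figure D2:**
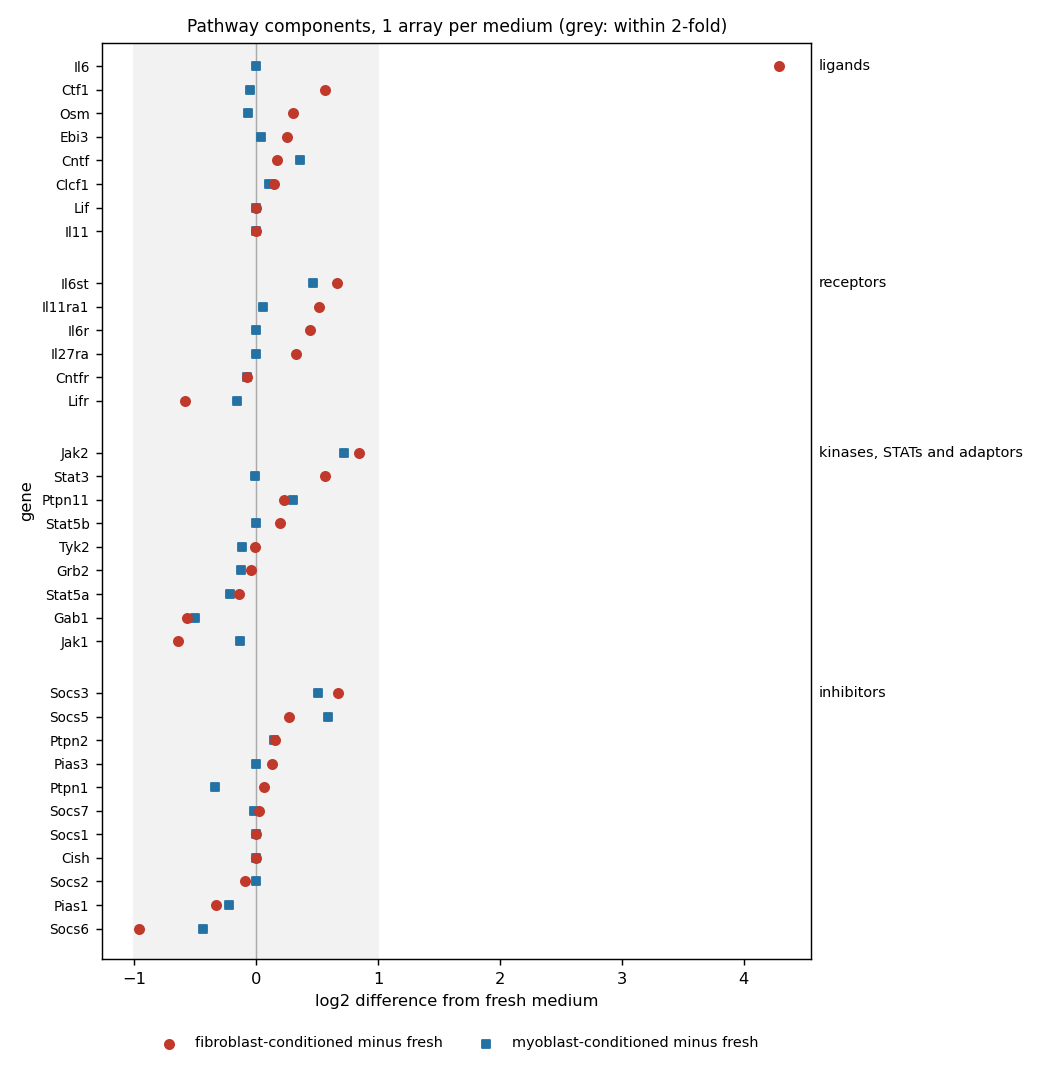
Log2 difference from fresh medium (horizontal axis) of each measured ligand, receptor, kinase, adaptor and inhibitor gene (vertical axis), with circles for fibroblast-conditioned and squares for myoblast-conditioned medium and grey shading within 2-fold. Il6 at 4.29 in fibroblast-conditioned medium is the single point outside the shading.

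Reg3b, which encodes a secreted lectin first known from pancreatitis, had a value of 0.68 in fibroblast-conditioned medium, a blank in myoblast-conditioned medium and -1.31 in fresh medium. The conditioned media were each above fresh medium, by 1.998 (3.99-fold) for fibroblast-conditioned and by 1.31 (2.48-fold) for myoblast-conditioned medium. Their own difference was 0.68, above the highest added control transcript of that comparison, 0.48, and smaller in size than the lowest, -1.02. In size, 0.942% of all genes differed at least as much as Reg3b between myoblast-conditioned and fresh medium, where Reg3b ranked 80th from the highest.

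Its relatives Reg3a and Reg3g, in the same stretch of chromosome 4, had the same order of arrays. Reg3g had 2.005 in fibroblast-conditioned medium, a blank in myoblast-conditioned medium and -1.12 in fresh medium, and Reg3a had 2.39, a blank and -0.44. In fibroblast-conditioned medium they were higher than in fresh medium by 3.13 and 2.83, more than Reg3b. In myoblast-conditioned medium Reg3g was higher than in fresh medium by 1.12 and Reg3a by 0.44. The annotated genes lie at chr4:112419776-112423014 for Reg3b, chr4:112430397-112433163 for Reg3a and chr4:112482183-112484738 for Reg3g on GRCr8. Each was read by 1 probe set, and how far these related transcripts hybridise to one another's probes is not known here. The STAT letters of the Reg3b window were not in the windows of Reg3a or Reg3g.

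The order fresh, then myoblast-conditioned, then fibroblast-conditioned medium from low to high was that of 7 of the 9 member probe sets with values on 2 arrays, 3 of them for Il6st. Among all 17117 probe sets with values on 2 arrays, 18.8% had that order. The exceptions were the second Il6st probe set and the second Stat3 probe set. In each of the 7, the myoblast-conditioned cell was blank, so the middle place of that medium rests on reading a blank as the middle array. The same reading sets the middle array in all 17117 probe sets. Because the members were chosen with the differences between these arrays known, nothing is read from the count of 7.

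**Figure D3:**
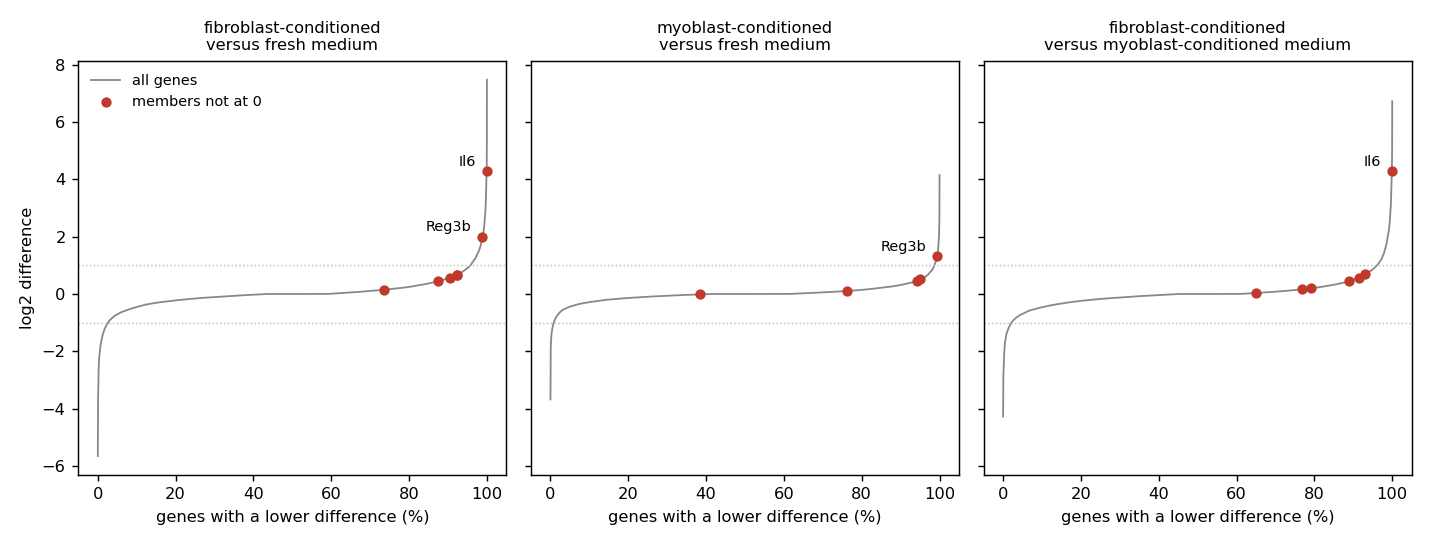
All 14218 genes ranked by log2 difference (vertical axis) against the percentage of genes with a lower difference (horizontal axis) for each of the 3 comparisons, with the members that are not at 0 as red points and dotted lines at 2-fold. Il6 sits at the upper end in both comparisons of fibroblast-conditioned medium, and Reg3b is the only member past 2-fold in myoblast-conditioned against fresh medium.

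A wider list of 34 STAT3 target and acute phase genes, Reg3b included, had 13 members at least 2-fold higher in fibroblast-conditioned than in fresh medium and 0 lower by that much, with a median of 0.48, beside 4.26% and 2.6% of all genes past those limits and a median of 0.00 over all genes. After Reg3g, the highest was Icam1, a leukocyte adhesion gene, at 2.92. Spp1, the osteopontin gene, was at 2.17, Timp1, a metalloprotease inhibitor gene, at 1.95, and the cyclin gene Ccnd1 at 1.73. The transcription factor genes Cebpb, Cebpd, Junb and Myc were at 1.79, 1.65, 1.41 and 1.198. The others were Mt2A, a metallothionein gene, at 1.39 and Hp, the haptoglobin gene, at 1.15.

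Other genes of the list lay within 2-fold of fresh medium. Bcl3 was at 0.58, A2m at 0.50, Lcn2 at 0.41, Mcl1 at 0.29 and Pim1 at -0.09. The fibrinogen genes Fga and Fgg and the C-reactive protein gene Crp had blanks on all arrays.

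In myoblast-conditioned medium, 6 of the 34 were at least 2-fold higher than in fresh medium and 1 was lower by that much, with a median of 0.10, beside 1.35% and 0.844% of all genes. They were Myc at 1.80, Mt2A at 1.75, Mt1 at 1.503, Reg3b, Reg3g and Cebpb at 1.04, against Steap4, a metalloreductase gene, at -1.09. When the arrays were centred on the added control transcripts, 4 were 2-fold higher and the median was -0.15, while genes 2-fold higher numbered 95 in all, in place of 192. That centring shifts every gene by the same amount, -0.25 in this comparison, so the list's place relative to all genes cannot change with it. The list was chosen with earlier results of these data known. Reg3b was still past 2-fold, at 1.06. Between the conditioned media, 9 were at least 2-fold higher in fibroblast-conditioned medium, led by Reg3a at 2.39 and Icam1 at 2.36, and Mt1 was lower at -1.24, beside 3.94% and 2.12% of all genes.

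Genes that induce Il6 or govern the stability of its messenger RNA were listed separately, with 19 members of which Cebpb, Cebpd and Fos are also in the target list. In fibroblast-conditioned medium 4 were at least 2-fold higher than in fresh medium, 0 were 2-fold lower, and 18 were above 0, with a median of 0.80. Of all genes, 4.26% and 2.6% were past 2-fold in those directions and 41.0% were above 0. The interleukin-1 genes Il1b and Il1a, whose products induce Il6 in many cells, were at 4.94 and 3.91, above and below Il6 itself. Tnf was at 0.77, and the NF-kB subunit and inhibitor genes Nfkb2, Nfkbia, Nfkbiz, Relb, Rela and Nfkb1 were at 0.96, 0.85, 0.79, 0.73, 0.39 and 0.09. With the probe set of widest range in place of the mean, 8 of the 19 were 2-fold higher, while genes 2-fold higher numbered 787 in all, in place of 605.

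Of the genes for proteins that act on Il6 messenger RNA, Zc3h12a, which encodes the ribonuclease regnase-1, was at 0.84, Arid5a, whose product stabilises the transcript, at 0.80, and Zfp36, encoding tristetraprolin, at 0.52. The same genes were at 0.12, 0.07 and -0.15 in myoblast-conditioned relative to fresh medium. There, Cebpb alone of the 19 was past 2-fold, upward, and the median was 0.00, beside 1.35% of all genes higher and 0.844% lower. Il1b was at -0.13, Nfkbia at -0.45 and Jun at -0.47. With the arrays centred on the added control transcripts, 0 of the 19 were past 2-fold in that comparison. Genes 2-fold higher then numbered 95 in all, in place of 192. Between the conditioned media, 5 were at least 2-fold higher in fibroblast-conditioned medium: Il1b at 5.07, Il1a at 3.66, Jun at 1.33, Nfkbia at 1.29 and Cebpd at 1.22, beside 3.94% of all genes.

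**Figure D4:**
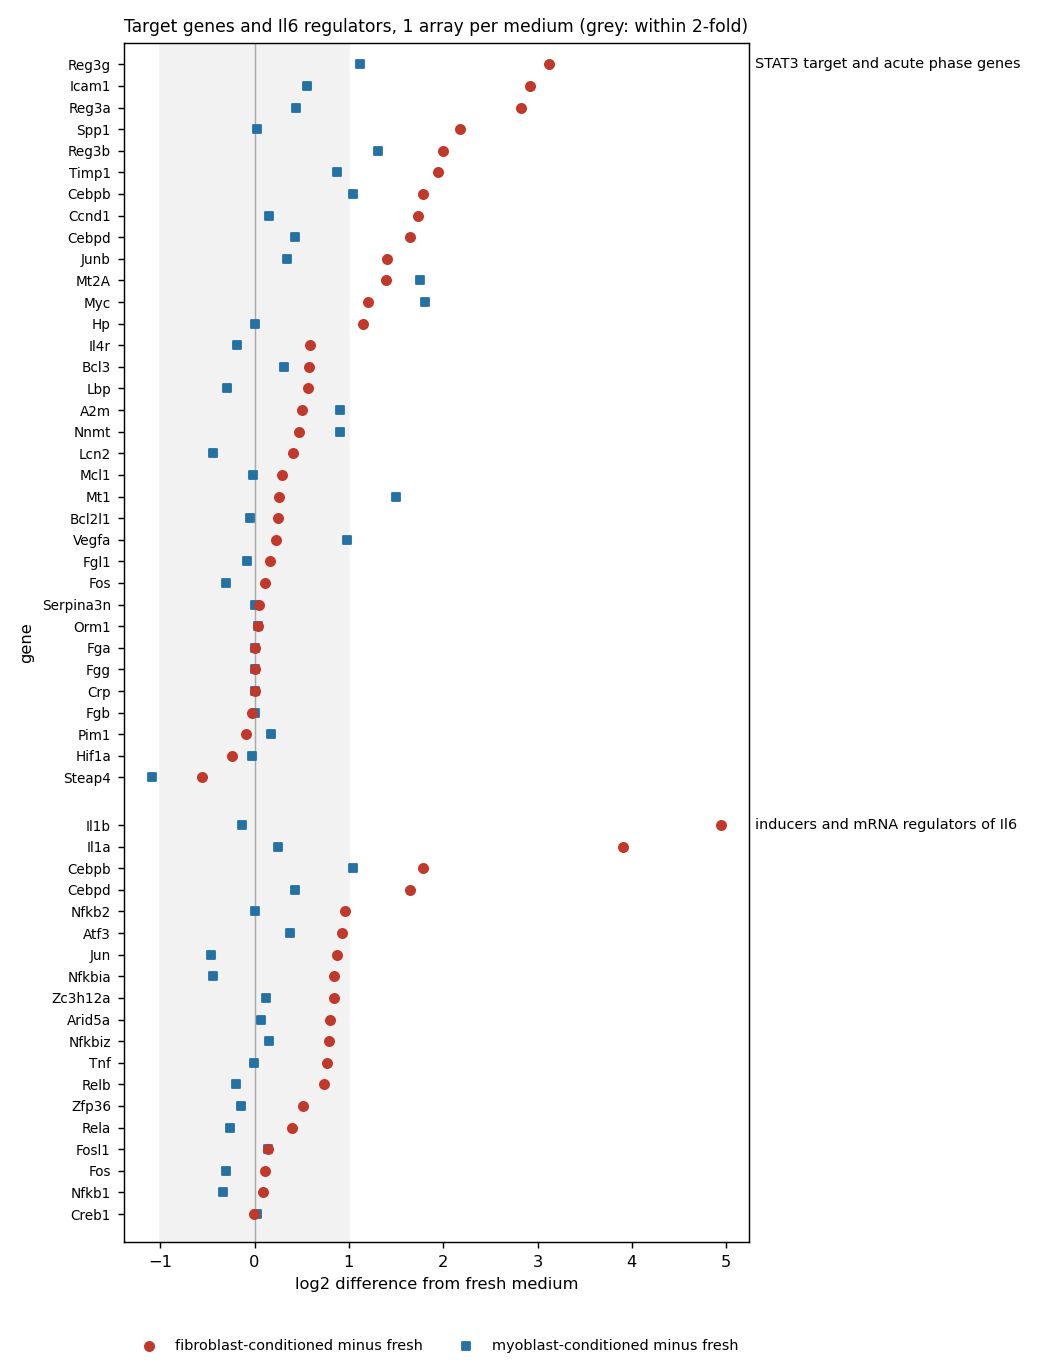
Log2 difference from fresh medium (horizontal axis) of 34 STAT3 target and acute phase genes and of 19 inducers and messenger RNA regulators of Il6 (vertical axis), with circles for fibroblast-conditioned and squares for myoblast-conditioned medium and grey shading within 2-fold. Il1b and Il1a at 4.94 and 3.91 are the highest circles, and Myc at 1.80 is the highest square.

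Most macrophage markers, like Il6, were high on the 1 array of fibroblast-conditioned medium. Of 12 markers, 10 were at least 2-fold higher than in fresh medium and 0 were lower, from Cd163 at 0.08 to Adgre1 at 5.41, with a median of 2.04, beside 4.26% and 2.6% of all genes. In myoblast-conditioned medium only Fcgr2b was 2-fold higher, at 1.13, and 0 were lower, beside 1.35% and 0.844% of all genes. There, 10 of the 12 markers were below 0, with a median of -0.48. In centred log2 values their mean was 2.49 in fibroblast-conditioned, -0.43 in myoblast-conditioned and -0.09 in fresh medium. Their range over the 12 genes was 0.00 to 5.41 in fibroblast-conditioned, -0.94 to 0.08 in myoblast-conditioned and -1.13 to 0.10 in fresh medium. None of the 12 was blank on all arrays. Their part in the Il6, Il1b and target gene differences was not tested.

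All 7 measured endothelial markers were at least 2-fold lower in fibroblast-conditioned than in fresh medium, with a median of -2.83, and 4 of them in myoblast-conditioned medium, with a median of -1.03. Of 9 cardiomyocyte markers, 4 were 2-fold lower and 0 higher in fibroblast-conditioned medium, with a median of -0.97, and 1 was lower and 1 higher in myoblast-conditioned medium. Of 8 fibroblast markers, 1 was higher and 1 lower than in fresh medium in fibroblast-conditioned medium, and 1 was lower in myoblast-conditioned medium. Beside these counts, 2.6% of all genes were 2-fold lower and 4.26% higher in fibroblast-conditioned than in fresh medium. In myoblast-conditioned medium the shares were 0.844% lower and 1.35% higher. The 4 measured skeletal myoblast markers lay between -0.28 and 0.00 in both comparisons. Because centring removes the level, the presence of cardiomyocyte transcripts could not itself be checked. The excess of 3' over 5' signal, a sign of RNA degradation, differed between fibroblast-conditioned and fresh medium by 0.22 for the beta-actin probe sets and by -0.01 for those of GAPDH, and between myoblast-conditioned and fresh medium by -0.15 and 0.02. Between fibroblast-conditioned and myoblast-conditioned medium it differed by 0.37 for beta-actin and by -0.02 for GAPDH.

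**Figure D5:**
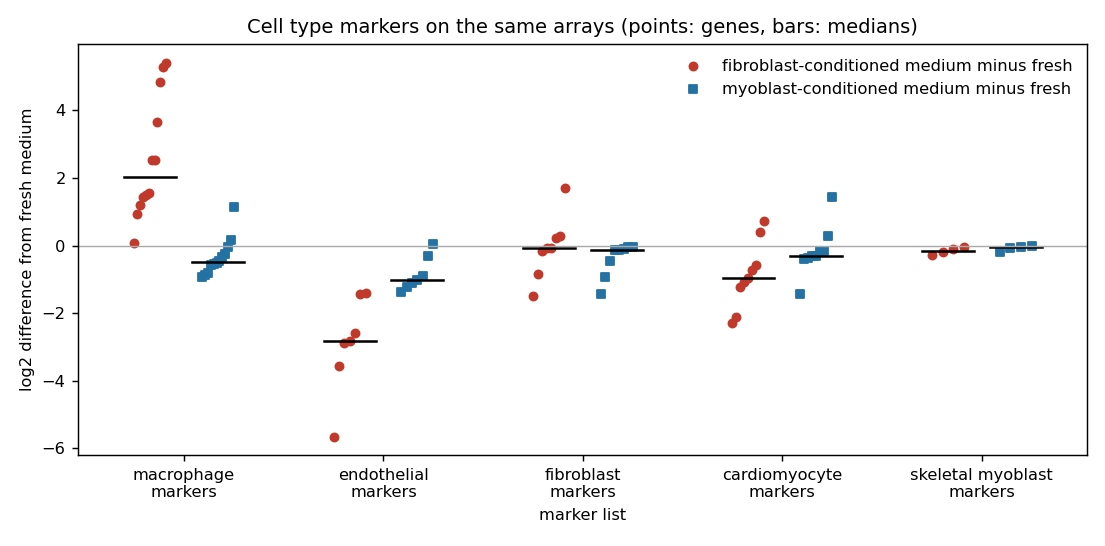
Log2 difference from fresh medium (vertical axis) of the genes in 5 cell type marker lists (horizontal axis), with circles for fibroblast-conditioned and squares for myoblast-conditioned medium and bars at the medians. Macrophage markers are the highest group in fibroblast-conditioned medium, with a median of 2.04, and endothelial markers the lowest, at -2.83.

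The genes most like a member were taken as the 5 with the smallest Euclidean distance over the 2 log2 differences from fresh medium, a measure that rests on 3 arrays. For Il6 they were Scg2 at a distance of 0.16, the chemokine gene Ccl3 at 0.32, the matricellular gene Ccn3 at 0.36, the chemokine gene Ccl9 and Fcrl2, each at 0.38. For Reg3b they were the stress-response gene Nupr1 at 0.09, then Cyp1b1, Crym, Cpeb1 and the Z-disc gene Csrp3, at 0.16 to 0.19. For Socs3 they were Tnfaip2 at 0.02, Bag1, Slc4a2, Htra1 and, as the fifth, Il6st at 0.05. Lif has no such neighbours, since 1552 genes share its differences of 0.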

How the data were processed

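The deposited values are log2 values per probe set of a rat Affymetrix 3' array, made by RMA per the submitters' processing notes, with software, version and settings not given in the sources used here. As the deposited values show, they are centred per probe set: of 31099 probe sets, 17117 had 2 values of opposite sign, 8002 had 1, 5980 had none, 0 had 3 and no value was exactly 0. Blanks were read as the middle array or a tie, at 0.

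By the platform annotation, 20832 probe sets had 1 gene symbol, 436 had several and were not used, and 9831 had no name here. Entrez IDs gave current RefSeq symbols (assembly GRCr8) for 20764 of the 20832. Probe sets of 1 gene were averaged. Differences of log2 values were counted past 1. Of the genes, 1627 were at 0 on all arrays.

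The members and lists were chosen with earlier results of these data known. Genes named are all members, list genes past 2-fold or described by role, and the 5 nearest genes of Il6, Lif, Socs3 and Reg3b, leaving out provisional symbols (LOC, RGD, MGC, AABR). The counting was tested on simulated data. Alternatives were the median or the widest-range probe set, blanks left missing, cross-hybridising probe sets left out, 2 other centrings, and thresholds of 1.5-fold and 3-fold. Using only probe sets with values on 2 arrays was added after seeing the data. The number of arrays, 1 per medium, limits the precision. Python 3.11.15, NumPy 2.4.6, pandas 2.3.3 and Matplotlib 3.10.9 were used.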

Additional observations from a re-analysis of the deposited data

How the results depend on the processing

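No paired analysis was possible because each medium has 1 array, and no array could be left out. Of 9 measured members, those past 2-fold in fibroblast-conditioned against fresh medium numbered 2. The count was 1 (Reg3b) with blanks left missing and 1 with probe sets restricted to those with 2 nonblank arrays. Of the genes left, 435 and 646 were 2-fold higher in those settings, in place of 605. The member count was 3 with the widest-range probe set, which added Il6st, and 4 at 1.5-fold, which added Il6st and Socs3. Between the conditioned media the count was 1, but 0 with blanks left missing, 0 with only probe sets with values on 2 arrays, and 2 at 1.5-fold, which added Reg3b. In myoblast-conditioned against fresh medium it was 1, but 0 with blanks left missing and 0 at 3-fold. At 1.5-fold, 1293 of all 14218 genes were higher in fibroblast-conditioned than in fresh medium, in place of 605 at 2-fold. Against myoblast-conditioned medium they numbered 1186, in place of 560. At 3-fold, 54 genes were higher in myoblast-conditioned than in fresh medium, in place of 192. Leaving blanks missing removed Il6 because 2 of its 3 cells are blank, and left 5 members with a difference in fibroblast-conditioned against fresh medium and 1 in each of the other comparisons. With the widest-range probe set, 8 of the 19 inducers and regulators of Il6 were past 2-fold in fibroblast-conditioned against fresh medium and 8 against myoblast-conditioned medium, in place of 4 and 5, and 1 of the 6 receptors (Il6st) in place of 0 against fresh medium. Genes 2-fold higher then numbered 787 and 728 in all in those 2 comparisons, in place of 605 and 560.

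For a member with 1 probe set, the choice of probe set cannot change its value, and each centring shifts all genes alike. Differences lost with blanks left missing were not counted. Most of the following values were thus fixed in advance, and their count is no measure of stability. Of 157 other values of single members, 147 moved by less than the SD of the added control transcripts and 0 changed sign past 2-fold. The other 10 were all in myoblast-conditioned against fresh medium: 9 under centring on the added control transcripts and Il6st with its widest-range probe set, at 0.67. That centring shifted all genes by -0.25 there, which put Clcf1 at -0.14, Socs3 at 0.26 and Il6st at 0.22. It turned 192 genes 2-fold higher and 120 lower into 95 and 249, and, between the conditioned media, 560 higher and 302 lower into 821 and 193. Signal over background is not known from centred values.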

Other observations

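Other cytokines and receptors known to act through STAT3 were looked up after the members' values were seen, with no test. Of 15 such genes, 9 were measured and 0 were past 2-fold in any comparison. Among all genes, the share past 2-fold was 0.844% to 4.26% by direction and comparison, so nothing is read from the 0. Between fibroblast-conditioned and fresh medium they lay from -0.05 for Il24 to 0.27 for Il10rb. Csf3, the gene of granulocyte colony-stimulating factor, was at 0.21 in fibroblast-conditioned and 0.00 in myoblast-conditioned medium relative to fresh medium, and its receptor gene Csf3r and Il10 had blanks on all arrays. The leptin receptor gene Lepr, with 7 probe sets, was at -0.04 and -0.03.

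Of the proteases that release the interleukin-6 receptor from the cell surface, Adam17 had differences from fresh medium of 0.64 in fibroblast-conditioned and 0.02 in myoblast-conditioned medium, and Adam10 of -0.49 and -0.26. Reg1a, a more distant relative of Reg3b, was at 0.97 and 0.40, the same order of media as the Reg3 genes.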
